A study of Bos taurus with 27 samples.

Results

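Transcripts of 2 genes, ENSBTAG00000012275 and ENSBTAG00000019801, were followed through 27 cattle embryos (Bos taurus), each sequenced singly after recovery at day 15 of pregnancy. They are 2 of the 19994 Ensembl genes counted in every embryo, and both were kept by the filter on low counts that left 11919 genes. They were chosen from these same counts because nearly all long embryos had fewer of their transcripts than short embryos of either maternal diet. The contrast of long with short embryos is therefore a description here, with no test. Tests are given for diet among short embryos, for the sex letter, for the difference in size slope between diets and, for ENSBTAG00000012275, for size within the short class.

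The embryos fall into 3 groups: 6 long embryos of omega-3-fed dams (long omega-3), 10 short embryos of omega-3-fed dams (short omega-3) and 11 short embryos of omega-6-fed dams (short omega-6). The size numbers in the titles, given without a unit, ran from 10.5 to 20.3 in long omega-3, from 0.4 to 9.5 in short omega-3 and from 1.4 to 7.7 in short omega-6 embryos. A long class of omega-6 embryos was not analysed here. Titles also carry the letter m (15 embryos) or f (12 embryos), taken to stand for male and female. The dams are not named, and some embryos may be siblings, so that a p-value speaks only of the spread among the embryos at hand.

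At this stage the cattle embryo has not yet attached to the uterus. Its outer layer, the trophectoderm, lengthens from a sphere through a tube to a filament. A second layer, the hypoblast, spreads beneath it, while the epiblast that will form the body of the embryo remains a small disc. The trophectoderm of the lengthening embryo secretes interferon tau, the signal by which ruminants recognise pregnancy. A whole-embryo library mixes all 3 layers, so fewer cells of a type and less RNA per cell cannot be told apart. The identifiers are not paired with gene symbols in the sources used here, so both genes are described by identifier, without a role, a position or a sequence.

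Values are CPM, the count of a gene scaled to the total count of its embryo. Totals ran from 17931620 to 29868584, with a median of 24349563, so that 3 counts, taken here as the limit that a count of 0 allows, equal 0.1 to 0.167 CPM. Short omega-6 embryos 22 and 25 stood apart from the others. Their log2 CPM had a median correlation with the other embryos of 0.928 and 0.934, against 0.951 to 0.981 in the other 25, and their TMM factors (trimmed mean of M-values, a scaling between libraries) were 0.773 and 0.888, against 0.964 to 1.09. Short omega-3 embryo 14 held both the lowest correlation (0.951) and the highest factor (1.09) of those 25. Long omega-3 embryo 07 is lettered f but held 926 counts (41.1 CPM) of ENSBTAG00000045750. The other 11 f embryos had at most 4 counts of that gene, and the 15 m embryos had 10.5 to 78.1 CPM.

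ENSBTAG00000012275 was low and even in long embryos and high and uneven in short ones. In long omega-3 embryos, taken by rising size number, it measured 6.64 CPM in embryo 06, 4.76 in 10, 8.1 in 16, 4.3 in 04, 6.75 in 07 and 4.32 in 01. In short omega-3 embryos, in the same order, it measured 66.0 CPM in embryo 14, 104.6 in 13, 87.8 in 05, 100.7 in 12, 47.5 in 08, 26.2 in 03, 20.6 in 15, 33.6 in 17, 27.3 in 02 and 2.64 in 11. Short omega-6 embryos held 38.9 CPM in embryo 25, 36.6 in 20, 57.7 in 18, 114.1 in 19, 25.2 in 21, 31.8 in 30, 13.4 in 22, 86.7 in 24, 49.9 in 28, 48.7 in 23 and 25.96 in 26. Of the short embryos, 9 of the 10 omega-3 and all 11 omega-6 ones lay above every long embryo. The exception was embryo 11, the largest of the short class at a size number of 9.5, which lay below every long embryo.

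**Figure D1:**
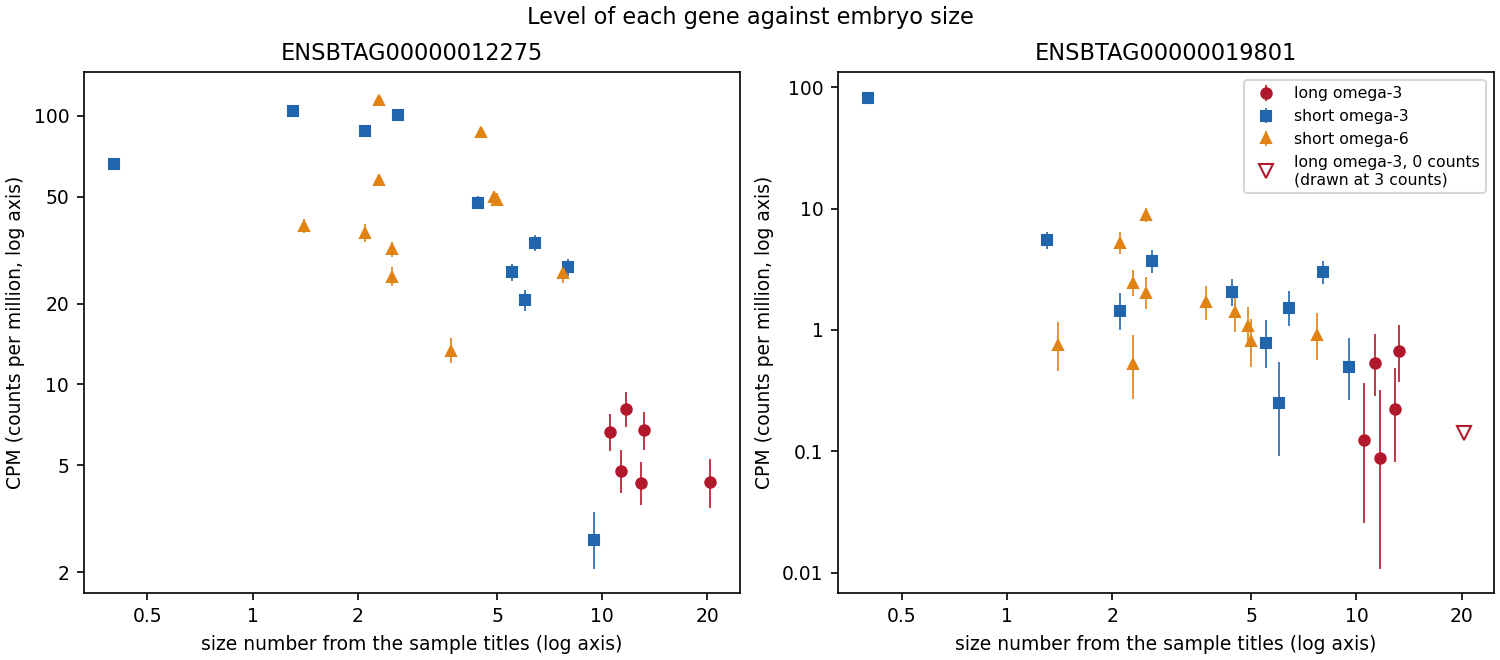
Level of each gene in CPM (counts scaled to the library total, log axis) against the size number (log axis), 1 point per embryo, with bars for the 95% exact Poisson interval of its count. ENSBTAG00000012275 drops to 2.64 CPM at a size number of 9.5 and stays at or below 8.1 CPM in the 6 long embryos; for ENSBTAG00000019801 the smallest embryo, at 81.0 CPM, stands above all others, and long embryo 01, with 0 counts, is drawn at 3 counts.

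On average ENSBTAG00000012275 stood at 5.81 ± 1.58 CPM (SD) in the 6 long omega-3 embryos. It averaged 51.7 ± 36.0 CPM (SD) in the 10 short omega-3 and 48.1 ± 29.4 CPM (SD) in the 11 short omega-6 embryos. The long mean was 8.89-fold lower than the short omega-3 mean and 8.27-fold lower than the short omega-6 mean. Medians gave smaller distances, 7.12-fold and 6.82-fold. In edgeR's model of group and sex letter the log2 fold change was -3.11 ± 0.54 (SE) for long against short omega-3 and -3.01 ± 0.53 for long omega-3 against short omega-6. These contrasts share the 6 long embryos. As background, 0.461% of all genes tested were called lower in the first contrast and 10.3% in the second, and in 0.864% at least 20 of the 21 short embryos lay above every long embryo. Since both genes were picked by this contrast, nothing is read from these shares.

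ENSBTAG00000019801 was counted far less often and came close to the limit of detection in long embryos. Long omega-3 embryos, by rising size number, had 3 counts in embryo 06, 13 in 10, 2 in 16, 6 in 04, 15 in 07 and 0 in 01. In CPM these were 0.125, 0.538, 0.0885, 0.222, 0.666 and 0, the last with an upper 95% Poisson limit of 0.173 CPM. Short omega-3 embryos held 81.0 CPM in embryo 14 (2091 counts), 5.45 in 13, 1.43 in 05, 3.7 in 12, 2.05 in 08, 0.788 in 03, 0.251 in 15, 1.53 in 17, 2.98 in 02 and 0.497 in 11. The smallest embryo, 14, thus stood 14.9-fold above the next smallest one, 13, and 9.12-fold above the second highest of all, short omega-6 embryo 30.

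Short omega-6 embryos held 0.75 CPM of ENSBTAG00000019801 in embryo 25, 5.24 in 20, 2.45 in 18, 0.523 in 19, 2.03 in 21, 8.88 in 30, 1.69 in 22, 1.41 in 24, 1.07 in 28, 0.807 in 23 and 0.907 in 26. Of the short embryos, 8 of 10 omega-3 and 10 of 11 omega-6 lay above every long embryo. Embryos 11, 15 and 19 lay within the range of the long embryos, and none lay below it. At least 18 of 21 short embryos were above every long embryo in 3.08% of all genes tested, which is again only background to the choice of the genes.

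The average of ENSBTAG00000019801 in short omega-3 embryos was largely that of 1 embryo. The mean was 0.273 ± 0.268 CPM (SD) over the 6 long omega-3 embryos. It was 9.97 ± 25.01 CPM (SD) over the 10 short omega-3 and 2.34 ± 2.54 CPM (SD) over the 11 short omega-6 embryos. Embryo 14 supplied 81.3% of the short omega-3 sum, and without it the other 9 averaged 2.07 ± 1.7 CPM (SD). The mean of long embryos was 36.5-fold lower than that of short omega-3 embryos with embryo 14 and 7.59-fold lower without it, while it was 8.56-fold lower than that of short omega-6 embryos. The ratio of medians was steadier, 10.3-fold against short omega-3 and 8.14-fold against short omega-6. The edgeR log2 fold change was -4.92 ± 1.25 (SE) for long against short omega-3, -2.81 ± 0.75 without embryo 14, and -3.24 ± 1.21 for long omega-3 against short omega-6.

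**Figure D2:**
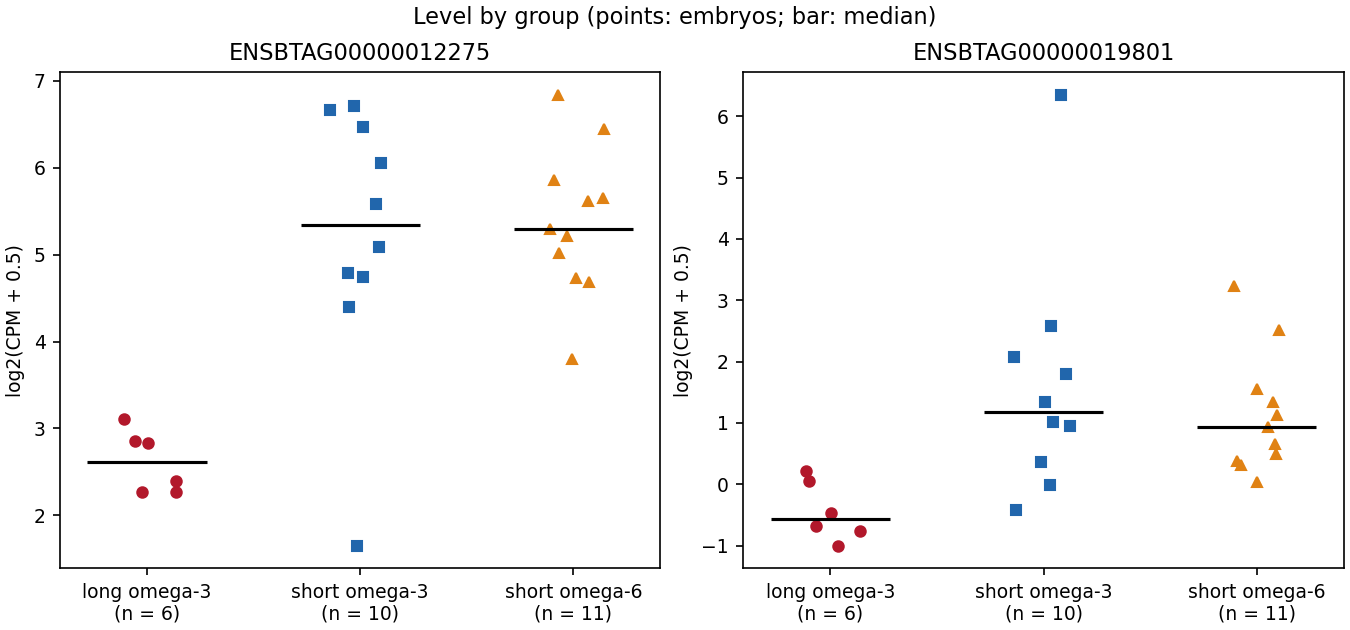
Log2(CPM + 0.5) of each gene by group, 1 point per embryo, with a bar at the group's median. For ENSBTAG00000012275 a gap separates the 6 long embryos (4.3 to 8.1 CPM) from all short embryos but the lowest short omega-3 one, at 2.64 CPM; for ENSBTAG00000019801 the groups adjoin and overlap in 3 short embryos.

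Single embryos carried the change in the 2 genes to different degrees. For ENSBTAG00000012275 the mean of long embryos stayed 7.88-fold to 9.83-fold lower than that of short omega-3 embryos when each of the 16 omega-3 embryos was left out in turn. Against short omega-6 embryos the range was 7.14-fold to 8.98-fold. For ENSBTAG00000019801 the range was 7.59-fold to 51.2-fold against short omega-3, with the low end without embryo 14 and the high end without long embryo 07. Against short omega-6 embryos it was 6.17-fold without embryo 30 and 12.02-fold without long embryo 07. Where the long mean rests on 39 counts in all 6 embryos, as it does for ENSBTAG00000019801, 1 embryo with 15 counts holds 40.6% of the summed CPM.

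**Figure D3:**
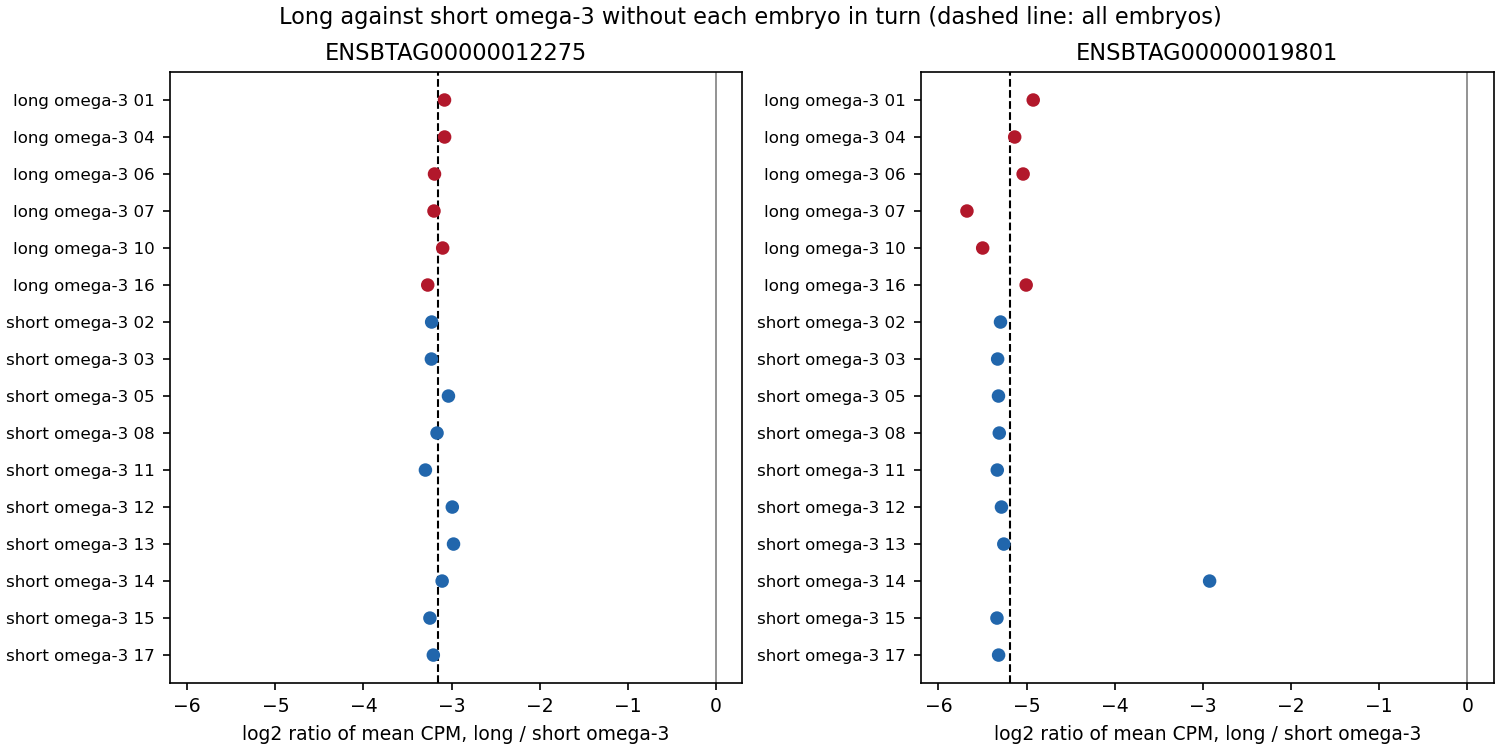
Log2 ratio of mean CPM in long over short omega-3 embryos, recomputed without each embryo named on the left; the dashed line is the ratio with all embryos (-3.15 for ENSBTAG00000012275 and -5.19 for ENSBTAG00000019801). All values for ENSBTAG00000012275 lie between -3.30 and -2.98, while the ratio of ENSBTAG00000019801 moves to -2.92 without embryo 14.

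The 2 genes were placed differently along the size number. ENSBTAG00000012275 had medians of 66.0 CPM in the 3 embryos below a size number of 2, 47.1 in the 8 embryos from 2 to under 4, 48.7 in the 5 from 4 to under 6, 25.96 in the 5 from 6 to under 10 and 5.7 in the 6 long embryos. The widest step between neighbours in size lay inside the short class. Embryo 02, at a size number of 8, held 27.3 CPM (95% Poisson interval 25.4 to 29.2), 10.3-fold more than embryo 11 at 9.5, with 2.64 CPM (2.05 to 3.34). From 9.5 to 20.3 no further order with size was visible, since the 7 largest embryos lay between 2.64 and 8.1 CPM and the largest embryo was not the lowest. With 1 embryo between size numbers of 8 and 10.5, the place of the step rests on embryo 11.

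ENSBTAG00000019801 had its widest step at the small end, 14.9-fold between neighbours 14 and 13, and embryo 02 held 5.99-fold more than embryo 11. Its medians in the same windows of size were 5.45, 2.24, 1.07, 0.907 and 0.174 CPM. The highest value in each window was 81.0, 8.88, 2.05, 2.98 and 0.666 CPM. Its low values were spread over the whole range of size, with 0.523 CPM at a size number of 2.3 (embryo 19), 0.251 CPM at 6 (embryo 15) and 0 counts at 20.3 (embryo 01). Embryo 02, at a size number of 8, still held 2.98 CPM.

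Over all 27 embryos the fitted slope of ENSBTAG00000012275 was -0.93 ± 0.17 (SE) on the log2 scale per doubling of the size number, and that of ENSBTAG00000019801 was -1.36 ± 0.15, from edgeR's model of diet, log2 size and sex letter. In that model 14.7% of all genes were called as falling with size. Without embryo 14 the slopes were -1.14 ± 0.19 and -1.07 ± 0.26, so the order of the 2 genes turned round. Both slopes overlap the contrast that chose the genes and are given without a test.

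The choice of the genes did not divide the short class by size, but it did use the values of these embryos against the long ones. A slope within the short class is therefore no independent support for that choice. The slope of ENSBTAG00000012275 there was -0.52 ± 0.21 (SE) per doubling over 21 embryos (95% interval -0.95 to -0.09). It did not pass edgeR's quasi-likelihood test after adjustment over 11534 genes (adjusted p = 0.0959), in a fit that called 7.46% of all genes as falling. DESeq2 and limma-voom, the latter with weights for library quality, placed it past the threshold (adjusted p = 0.035 and 0.0474). So did edgeR with size on the linear scale (adjusted p = 0.0272). Without embryo 11 the slope was -0.38 ± 0.17 (adjusted p = 0.151), and without embryo 14 it was -0.74 ± 0.25 (adjusted p = 0.0826). For ENSBTAG00000019801 the slope within the short class was -1.24 ± 0.19 with embryo 14 and -0.72 ± 0.32 without it. That gene had been named earlier for its slope over all embryos, 21 of which are these, so no p is given.

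The difference between diets among short embryos did not pass the edgeR test in either gene. ENSBTAG00000012275 had a lowest, median and highest value of 2.64, 40.6 and 104.6 CPM in short omega-3 embryos and of 13.4, 38.9 and 114.1 CPM in short omega-6 embryos. The highest values and the medians lay close together, while the short omega-3 range reached lower through embryo 11. The log2 fold change was 0.10 ± 0.39 (SE, 95% interval -0.70 to 0.89, adjusted p = 0.921). With log2 size in a fit of the short embryos it was -0.08 ± 0.38, of the opposite sign.

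ENSBTAG00000019801 showed a lowest, median and highest value of 0.251, 1.79 and 81.0 CPM in short omega-3 embryos and of 0.523, 1.41 and 8.88 CPM in short omega-6 embryos. Embryo 14 lay above every short omega-6 embryo, embryos 15 and 11 lay below every one, and the other 7 short omega-3 embryos lay within the short omega-6 range. The log2 fold change was 1.68 ± 0.91 (SE, 95% interval -0.20 to 3.55, edgeR adjusted p = 0.527), and it was -0.12 ± 0.53 without embryo 14 (adjusted p = 0.912). With log2 size in a fit of the short embryos, embryo 14 included, it was 0.49 ± 0.52. With limma-voom over all embryos it was 0.0095 ± 0.53. The mean of short omega-3 embryos was 4.26 times that of short omega-6 embryos with embryo 14 and 0.886 times without it. Across all genes this test called 0%, that is 0 of 11919 with edgeR, 0 with DESeq2 and 0 with limma-voom, with 1059 at an unadjusted edgeR p below 0.05. DESeq2 gave ENSBTAG00000019801 no p here or for the sex letter, so its count of 0 is no result for this gene. The DESeq2 log2 fold change of this gene for diet was 1.80 ± 0.80 (SE), a description with no test.

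The difference in size slope between the diets, tested among the 21 short embryos, did not pass in either gene. The omega-3 slope minus the omega-6 slope was -0.61 ± 0.49 (SE) for ENSBTAG00000012275 (95% interval -1.63 to 0.41, edgeR adjusted p = 0.84) and -0.37 ± 0.65 for ENSBTAG00000019801 (-1.72 to 0.98, adjusted p = 0.868). The intervals are wide against the slopes themselves. For ENSBTAG00000012275 the 4 short omega-3 embryos under a size number of 4 held 66.0 to 104.6 CPM, while the 7 short omega-6 embryos in that range held 13.4 to 114.1 CPM. Without embryo 14 the differences were -1.08 ± 0.48 and 0.25 ± 0.69 (adjusted p = 0.859 and 0.92). Among all genes 0% was called, 0 of 11534 with edgeR and 1 each with DESeq2 and limma-voom, with 505 at an unadjusted edgeR p below 0.05.

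The difference between embryos lettered m and f did not pass the edgeR test in either gene. Among short embryos ENSBTAG00000012275 ran from 2.64 to 100.7 CPM (median 48.7) in 11 m embryos and from 25.96 to 114.1 (median 37.7) in 10 f embryos. ENSBTAG00000019801 ran from 0.251 to 81.0 CPM (median 1.69) in m and from 0.523 to 8.88 (median 1.3) in f embryos. The log2 fold change of m over f in all embryos was -0.18 ± 0.35 (SE) for ENSBTAG00000012275 and 0.54 ± 0.86 for ENSBTAG00000019801 (edgeR adjusted p = 1 for each), in a comparison that called 0.386% of all genes. Without embryo 14 the second was -0.62 ± 0.48 (adjusted p = 1). Long embryo 07, lettered f but with ENSBTAG00000045750 in the range of the m embryos, was fitted as f. Without it the values were -0.16 ± 0.37 and 0.81 ± 0.91 (adjusted p = 1 for each).

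**Figure D4:**
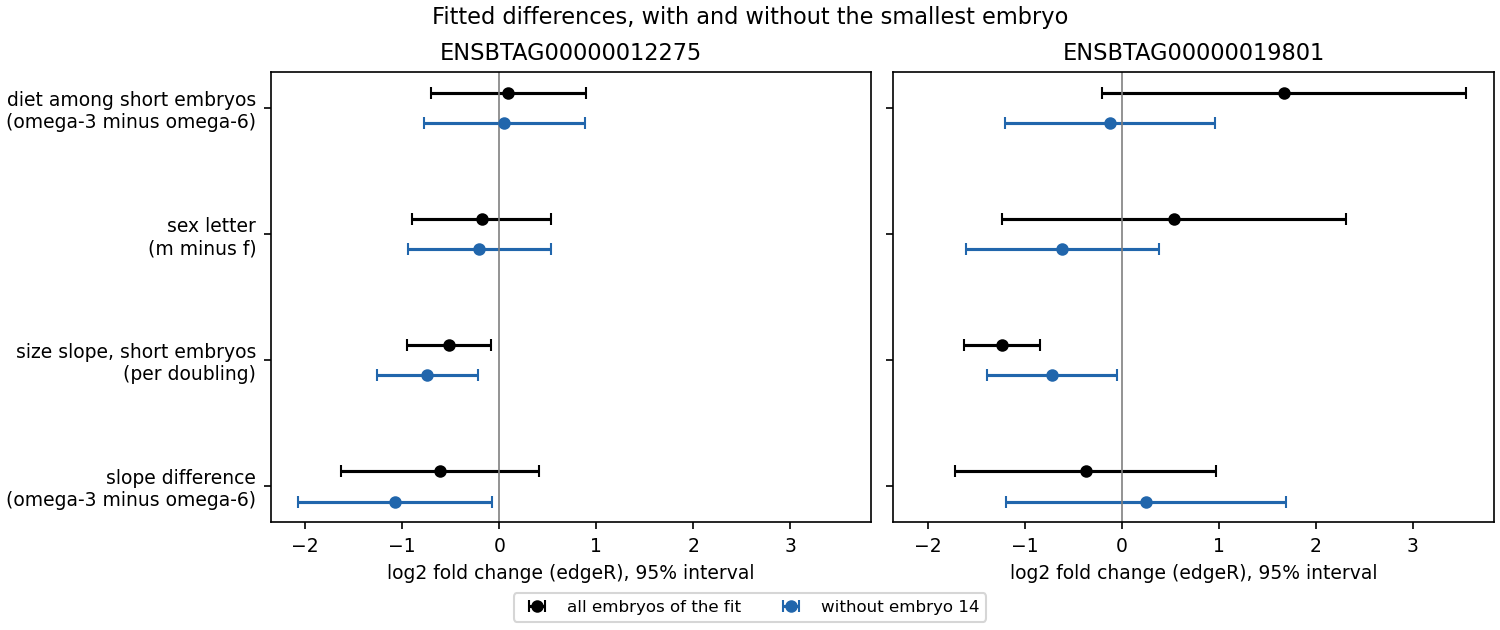
Log2 fold changes of both genes fitted by edgeR with their 95% intervals, for diet among short embryos, the sex letter, the slope on size within the short class and the difference of that slope between diets, with all embryos of the fit and without embryo 14. The points of ENSBTAG00000019801 for diet move to -0.12 and for the sex letter to -0.62 without that embryo; its slope is a description with no test.

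Spread among embryos was wide in both genes. The coefficient of variation of ENSBTAG00000012275 was 27.1% in long embryos, 69.7% in short omega-3 and 61.1% in short omega-6 embryos, while counting alone would give about 8.57%, 2.74% and 2.94%. Embryos of equal size number differed too. Short omega-6 embryos 19 and 18, both at 2.3, held 114.1 (109.8 to 118.6) and 57.7 (55.0 to 60.6) CPM, and embryos 05 (omega-3) and 20 (omega-6), both at 2.1, held 87.8 and 36.6 CPM. Embryos 30 and 21, both omega-6 at 2.5, held 31.8 and 25.2 CPM.

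ENSBTAG00000019801 varied by 97.9% in long embryos, 250.9% in short omega-3 and 108.4% in short omega-6 embryos, against 39.2%, 6.22% and 13.3% from counting. Without embryo 14 the short omega-3 embryos varied by 81.8%. The 6.22% from counting rests on a mean of 258.6 counts that includes embryo 14, so it is too low for the others. At the same size numbers, embryos 19 and 18 held 0.523 and 2.45 CPM, embryos 05 and 20 held 1.43 and 5.24, and embryos 30 and 21 held 8.88 and 2.03. In the first and second of these pairs the embryo with more ENSBTAG00000012275 had less ENSBTAG00000019801, and in the third it had more of both.

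Most genes varied far less between short embryos of like size. The biological coefficient of variation, edgeR's estimate of spread beyond counting after diet, log2 size and sex letter, was 0.588 for ENSBTAG00000012275 and 0.746 for ENSBTAG00000019801, against a median of 0.215 over 11534 genes. They ranked 251 and 98 from the highest. Among the 1865 genes within 0.5 log2 units of its mean level, 3 had a higher value than ENSBTAG00000012275, and among the 1169 genes that near to ENSBTAG00000019801, 15 did. These values include embryo 14, which held 64.6% of the summed CPM of ENSBTAG00000019801 in short embryos. They were not recomputed without it. Embryo 22, which stood apart in its whole profile, held the lowest short omega-6 value of ENSBTAG00000012275, 13.4 CPM (17.3 CPM after TMM scaling), and the part of that profile in the value was not tested.

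Whether short embryos high in one gene were high in the other was tested on log2(CPM + 0.5). No relation passed a two-sided permutation test over the 21 short embryos, with 3 relations in the family. Pearson r was 0.293 (permutation p = 0.172, adjusted 0.516), and rho by Spearman ranks was 0.283 (permutation p = 0.212, adjusted 0.636). Without embryos 11 and 19, the farthest from the median of ENSBTAG00000012275, r was 0.32. Within the diets r was 0.508 in short omega-3 (permutation p = 0.131; rho = 0.77, permutation p = 0.0125) and, in short omega-6 embryos, -0.308 (permutation p = 0.353; rho = -0.382, permutation p = 0.247), values that stand outside the adjusted family. After diet and log2 size were taken out of both, r was -0.149 (permutation p = 0.518). The relation of either gene to the total count did not pass, with r = -0.0919 for ENSBTAG00000012275 (permutation p = 0.68, rho = -0.0494, permutation p = 0.831) and r = 0.041 for ENSBTAG00000019801 (permutation p = 0.849, rho = 0.168, permutation p = 0.464). Adjusted p-values of these were 0.696 or more, and r was -0.0375 and 0.208 without embryos 20 and 24.

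**Figure D5:**
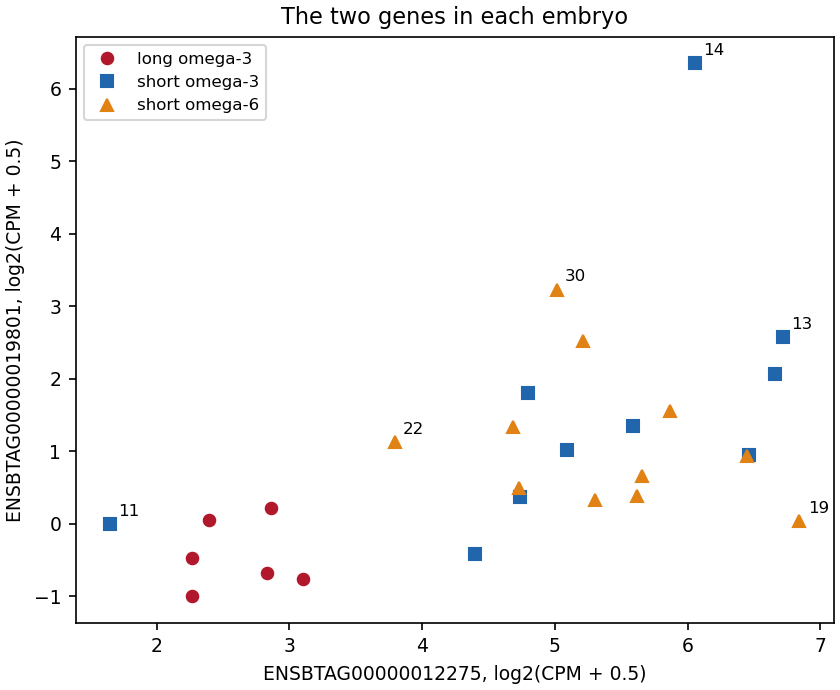
Log2(CPM + 0.5) of ENSBTAG00000019801 against that of ENSBTAG00000012275, 1 point per embryo, with embryos 11, 13, 14, 19, 22 and 30 numbered. The long embryos lie low in both genes; among short embryos, number 19 is highest in ENSBTAG00000012275 and near the bottom in ENSBTAG00000019801, and number 30 is second highest in ENSBTAG00000019801 with 31.8 CPM of the other gene.

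Genes with the most similar course were sought by the correlation of log2 CPM over the 27 embryos, as a description, since the embryos share a range of size and their batches are not named. Nearest to ENSBTAG00000012275 were ENSBTAG00000009727 (r = 0.891), ENSBTAG00000021260 (0.865), ENSBTAG00000021060 (0.861), ENSBTAG00000016058 (0.856) and ENSBTAG00000023736 (0.846). Their distances between groups were much smaller: ENSBTAG00000009727 averaged 256.5 CPM in long omega-3, 389.2 in short omega-3 and 409.0 in short omega-6 embryos, and ENSBTAG00000021260 averaged 66.7, 137.6 and 150.4 CPM in the same groups. Running most opposite to it were ENSBTAG00000016240 (r = -0.89; 6.47, 1.92 and 1.08 CPM) and ENSBTAG00000000599 (r = -0.89; 95.5, 52.2 and 47.2 CPM). Within the 21 short embryos the nearest were ENSBTAG00000008401 (r = 0.842), ENSBTAG00000016058 (0.834), which was thus near in both, and ENSBTAG00000019630 (0.801).

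Nearest to ENSBTAG00000019801 over the 27 embryos were ENSBTAG00000016748 (r = 0.848), ENSBTAG00000039346 (0.831), ENSBTAG00000021007 (0.827), ENSBTAG00000010784 (0.808) and ENSBTAG00000005989 (0.807). All 5 had their highest value in embryo 14, at 30.2, 49.3, 63.7, 80.5 and 312.4 CPM, and without that embryo the correlations were 0.776, 0.733, 0.768, 0.734 and 0.702. ENSBTAG00000016748 averaged 0.0365 CPM in long omega-3, 3.9 in short omega-3 and 1.21 in short omega-6 embryos, and ENSBTAG00000039346 averaged 0.459, 7.15 and 2.18 CPM. Most opposite were ENSBTAG00000007084 (r = -0.86, or -0.832 without embryo 14) and ENSBTAG00000019498 (r = -0.827, or -0.74 without embryo 14). Within the short embryos ENSBTAG00000039346 (0.83), ENSBTAG00000016748 (0.808) and ENSBTAG00000039540 (0.793) came nearest, at 0.686, 0.664 and 0.798 without embryo 14. The 2 genes described here had r = 0.598 with each other over 27 embryos, which ranked 535 in the order of likeness to ENSBTAG00000012275 and 455 in that to ENSBTAG00000019801.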

How the data were processed

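Each embryo gave 1 library. Per the labels' protocols, libraries were stranded and poly(A)-selected and were read as single 100 bp reads. The submitters' processing notes name STAR and featureCounts and no versions; build, annotation and strand setting were not given in the sources used here. The deposited values are the authors' raw read counts for 19994 genes. How reads shared by near-identical or overlapping genes were counted is not stated, so values of such genes are uncertain. The RefSeq gene table (assembly ARS-UCD2.0) matched 0 identifiers, so the planned marker lists could not be used.

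From the counts, CPM were computed on file totals. Genes were tested with edgeR 4.0.16 (R 4.3.3) after filterByExpr (minimum count 10, total 15, proportion 0.7) and TMM scaling, by the two-sided quasi-likelihood test with Benjamini-Hochberg adjustment and a threshold of 0.05. Group and sex letter were modelled over 27 embryos. Diet, log2 size and sex letter were modelled over 21 short embryos, with an interaction for the slope difference. Standard errors (SE) were derived from the fold change and its F statistic. The edgeR tests of diet, sex letter, short-class slope and slope difference were run on simulated counts as a check. That check did not cover DESeq2, limma-voom or the permutation tests, and its outcome is not given here. Correlations used 100000 permutations, log2 CPM a prior count of 2. Intervals of counts are exact Poisson (95%) and, like the limit of 3 counts, cover counting error only. Alternatives were RLE scaling, no filter, DESeq2 1.42.0, limma-voom 3.58.1, other models and embryos left out. Every limma-voom fit used weights for the quality of each library, and limma-voom without such weights was not run. Genes named besides the pair were, for each, the 5 most and 2 least correlated over 27 embryos and the 3 most correlated over the short ones. The genes, lists and tests were chosen with earlier results of these data known. The fit of all embryos without embryo 14 was added after seeing the data.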

Additional observations from a re-analysis of the deposited data

Results flagged for a closer look

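ENSBTAG00000019801 in short omega-3 embryo 14, at 81.0 CPM, was far from the other 9 short omega-3 embryos, which held 0.251 to 5.45 CPM. The gap to the next embryo was 0.936 of the group's range, above the critical value of 0.466 of Dixon's test for 10 values. The same test found no such value for this gene in the 6 long embryos, or for ENSBTAG00000012275 in either omega-3 group. Chance alone marks about 1 in 20 groups where values are normally spread. CPM were taken here without logs and their spread was not checked for this, so that rate is only a guide. Short omega-6 embryos were not put to the test. Embryo 14 was also the smallest embryo, with a size number of 0.4, and its part as a matter of size or of the single library cannot be told apart. Apart from embryos 22 and 25, its library had the lowest median correlation with the others (0.951). Its TMM factor (1.09) was the highest.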

How the results depend on the processing

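No paired analysis was possible because embryo numbers do not repeat across groups. Directions that turned round were all of differences that did not pass: diet for ENSBTAG00000012275 was -0.47 with limma-voom, -0.0302 without embryos 22 and 25 and -0.0754 with size in the model, and ran from -0.10 to 0.27 leaving out 1 embryo; for ENSBTAG00000019801 it ran from -0.12 to 2.06. The sex letter gave -0.0145 for ENSBTAG00000019801 with limma-voom and -0.62 to 0.99 without single embryos, and its slope difference was 0.0806 without embryos 22 and 25 and -0.73 to 0.25 without single embryos. The short-class slope of ENSBTAG00000012275 passed with DESeq2 (-0.53), limma-voom (-0.43) and linear size (-0.29 per unit), with -0.74 to -0.38 without single embryos; that of ENSBTAG00000019801 ran from -1.46 to -0.72. Slopes over all embryos were -1.14 and -1.07 without embryo 14. As ratios of geometric means of CPM + 0.5, long against short was -2.05 (omega-3) and -1.58 (omega-6) for ENSBTAG00000019801 on the log2 scale. That pseudocount is larger than most long values of this gene (0 to 0.666 CPM) and so shrinks the ratio. The log2 ratio of arithmetic means against short omega-3, -5.19 with all embryos, ran from -5.68 to -2.92 without single embryos. Called genes over the whole table numbered 46 for the sex letter, but 78 with DESeq2, 126 with limma-voom, 86 without embryos 22 and 25 and 31 (without 16) to 72 (without 22; 71 without 07); 1764 for the short-class slope, but 3604 with limma-voom, 3006 without embryos 22 and 25 and 738 (without 14) to 3024 (without 22). Diet and slope difference called 0, or 1 with no filter and without some single embryos, and the slope difference 1 with DESeq2 and limma-voom. The low counts of ENSBTAG00000019801 in long embryos, 0 to 15, limit its fold changes.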
